A study of Mus musculus with 14 samples.

Results

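Cytochrome P450 genes of families 1 to 4 were followed in kidney cortex of mice that differ in genotype and diet. Of 81 such rows in the deposited expression table, named Cyp1 to Cyp4 with a subfamily letter, 32 reached 1 FPKM (fragments mapped to a gene, relative to transcript length and library total) in at least 3 of 14 libraries and are described here. They come from 16 of 21 subfamilies. Family 1 gave 1 of 3 rows, family 2 gave 18 of 49, family 3 gave 1 of 9 and family 4 gave 12 of 20. The other 49 rows, 10 of them listed at 0 in all 14 libraries, stayed below that level.

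All mice were C57BL/6, and all 14 libraries held reads of Y-linked genes. The mice form 4 groups. TRACK-VAD (n = 4) and TRACK (n = 4) mice carry the transgene GGT-HIF1A_M3, a constitutively active HIF1A (the hypoxia-inducible factor subunit that oxygen controls), driven in proximal tubules by the promoter of gamma-glutamyl transferase. WT-VAD (n = 3) and WT (n = 3) mice are wild type. The groups named VAD ate a vitamin A deficient diet for 24 weeks, and the other groups ate regular chow sufficient in vitamin A. Both diets began 2 weeks after weaning, and the labels give age in no other way. Each library stands for 1 kidney cortex, so genotype and diet effects are read over mice.

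P450 enzymes are haem proteins that insert oxygen into fats, steroids and foreign chemicals, with electrons passed to them by the reductase Por and by cytochrome b5. Families 1 to 3 hold most enzymes of drug metabolism and several that make epoxides of arachidonic acid, and family 4 hydroxylates fatty acids at their tail end. In mouse kidney these genes are active mainly in the proximal tubule, where products of arachidonic acid act on salt transport and vessel tone. Some members are induced through nuclear receptors, such as PPARA for Cyp4a genes, and several differ between the sexes.

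The summed FPKM ran from 2012358 to 2551968 per library, 11206 to 12277 genes per library reached 1 FPKM, and absolute depth is unknown because only FPKM were used. Values below are scaled FPKM, that is FPKM divided by a factor per library between 0.894 and 1.17. Without this scaling the median of all genes lay 0.16 (log2) higher in TRACK than in WT and 0.18 higher in TRACK-VAD than in WT-VAD, so all differences are relative to that shift. Within groups, libraries correlated at 0.957 to 0.992 across genes. TRACK-VAD was uneven, with library means of 0.967 to 0.979, against 0.989 to 0.992 in the other groups. Its library 1 correlated best with 2 (0.985) and its library 3 with 4 (0.991). TRACK-VAD 2 had the lowest mean, the lowest levels of the tubule genes Kap (25127) and Slc34a1 (282) and the highest of the injury gene Havcr1 (303). TRACK-VAD 1 came next for each of these genes (38958, 394 and 142). TRACK-VAD 3 and 4 had 59841 and 59164 for Kap and 18.1 and 46.0 for Havcr1. Lanes were shared unevenly: WT, TRACK and TRACK-VAD 1 to 3 ran in lane 5, and WT-VAD and TRACK-VAD 4 in lane 6. Ndufa4l2, a gene induced by HIF, had 68.8 to 137 in the 8 transgenic libraries and 1.86 to 4.28 in the 6 wild-type libraries. Mouse Hif1a had 21.6 to 31.0 in transgenic and 22.8 to 32.7 in wild-type libraries. The transgene itself was not analysed here.

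A few genes carried most of the P450 expression. In WT cortex Cyp4b1 had the highest mean level (2217 ± 249.7 scaled FPKM, SD, n = 3), then Cyp2e1 (1914 ± 390.3), Cyp4a14 (1594 ± 348) and Cyp4a10 (1101 ± 126). The ranges of Cyp4b1 and Cyp2e1 overlapped in WT, as did those of Cyp2e1 and Cyp4a14, and the order of these neighbours was not tested. These 4 genes made up 67.5% of the summed WT level of the members and the first 10 genes 93.7%. At the low end Cyp2u1 reached 1 FPKM in 3 libraries (0.693 to 1.41 FPKM as deposited), Cyp2r1 in 4, Cyp3a11 in 5 and Cyp4f18 in 6. Just outside, Cyp3a25 had at most 0.980 FPKM, Cyp4f15 0.939, Cyp2c68 0.856 and Cyp4f14 0.827. The dioxin-inducible gene Cyp1a1, a usual sign of AHR activity, had at most 0.219 FPKM.

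Summed P450 expression was lower in every transgenic library than in every wild-type library. The sum over all members was 4933 ± 928 in TRACK-VAD, 4808 ± 545 in TRACK, 9909 ± 941 in WT-VAD and 10108 ± 842 in WT (scaled FPKM, SD). The lowest and highest libraries had 3849 and 5909 in TRACK-VAD, 4389 and 5538 in TRACK, 9131 and 10956 in WT-VAD, and 9191 and 10847 in WT. Diet groups of the same genotype overlapped. A sum follows its few most expressed genes. In bulk cortex, fewer cells of a type and less RNA per cell cannot be told apart.

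**Figure D1:**
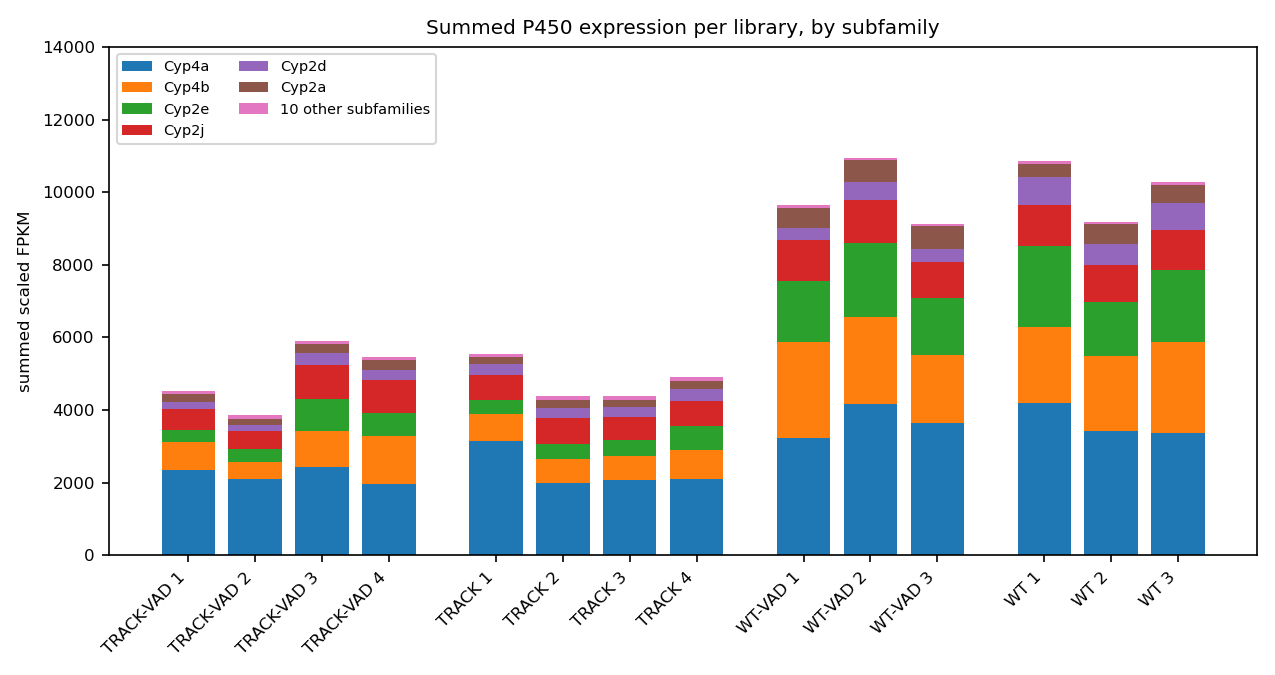
Summed scaled FPKM of the P450 members in each library, stacked by subfamily; the vertical axis is scaled FPKM and each bar is 1 mouse. All 8 transgenic bars end at or below 5909 and all 6 wild-type bars at or above 9131, with Cyp4a the largest block in each bar.

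On chow, 2 members rose and 12 fell in TRACK against WT, which is 43.8% of the 32 members, while 17.4% of all 12251 genes tested were called (limma, Benjamini-Hochberg adjusted p at or under 0.05, two-sided). In single directions 8.55% of all genes were called higher and 8.82% lower. On the deficient diet, 4 members rose and 14 fell in TRACK-VAD against WT-VAD, which is 56.2%, with 22.3% of all genes called (11.1% higher, 11.2% lower). These counts include Cyp4f18 (higher) and Cyp3a11 (lower), which met the 1 FPKM rule only through groups where they are high. The median log2 difference of the members was -0.40 on chow and -0.39 on the deficient diet, and that of all genes tested was -0.00 and -0.01. On chow the libraries of the groups did not overlap for 4 members higher and 16 lower, and the same held for 18.6% of all genes higher and 19.5% lower. On the deficient diet this was so for 5 members higher and 14 lower, and for 14.3% of all genes in each direction. Both comparisons rest on separate mice.

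On both diets 11 members were called, all with the same sign: Cyp2s1 and Cyp2d22 rose, and Cyp2a4, Cyp2a5, Cyp2d9, Cyp2e1, Cyp2j5, Cyp2j11, Cyp2j13, Cyp4a12b and Cyp4b1 fell. They are 78.6% of the 14 calls on chow and 61.1% of the 18 on the deficient diet. Over all genes, 1293 were called on both diets, 1290 of them (10.5% of all genes) with the same sign, which is 60.8% of the calls on chow and 47.3% of those on the deficient diet. In 10 members all 8 transgenic libraries lay below all 6 wild-type libraries, namely the 9 that fell on both diets and Cyp4a12a. Cyp2s1 was the 1 member with all 8 above all 6. Of all genes, 7.28% had all 8 transgenic libraries below and 7.31% above all 6 wild-type libraries. Another 11 members were called in no pairwise comparison of genotypes or diets. In the authors' deposited table, made by their own count-based test, 3 members were higher and 14 lower on chow and 5 higher and 16 lower on the deficient diet, and these include all 14 and all 18 calls above with the same sign. The authors' further calls on chow were Cyp4f18 (higher), Cyp4a12a and Cyp4a14 (lower). On the deficient diet they were Cyp1b1 (higher), Cyp2b10 and Cyp4a10 (lower).

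The number of calls depended on which libraries were in the fit. It fell to 9 on chow without WT 1, WT 3 or TRACK 3, and to 12 on the deficient diet without WT-VAD 1 or WT-VAD 2. Without TRACK-VAD 2 it was 16 on the deficient diet. With 1 library left out, at least 1 of TRACK-VAD 1 and 2 always stayed in the fit. Calls over all genes fell with them, to between 1026 and 1919 of 2127 on chow with 1 library left out, and were 1612 to 3464 against 2732 on the deficient diet. Lane was added as a term after seeing the data. All WT-VAD libraries ran in lane 6, and TRACK-VAD alone was in both lanes. The deficient-diet comparison with a lane term therefore rests on TRACK-VAD 4 against WT-VAD 1 to 3, as it does with lane 6 libraries alone. Differences with a lane term are thus those of 1 transgenic library and no correction for lane. They are given below by size only, and lane and genotype cannot be separated well on that diet.

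**Figure D2:**
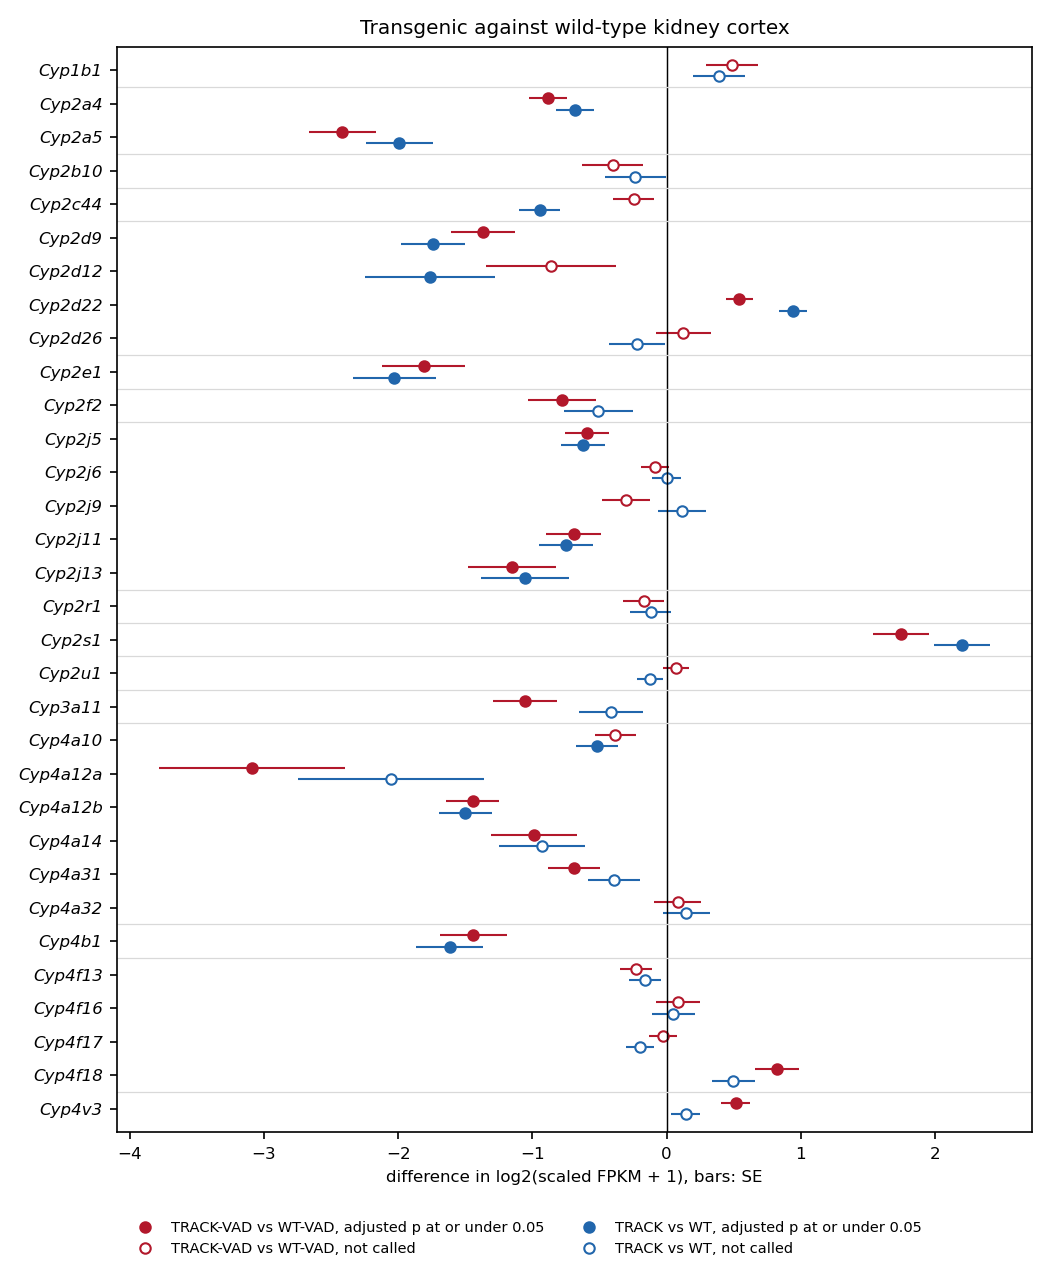
Difference in log2(scaled FPKM + 1) between transgenic and wild-type cortex for all 32 members; red points compare TRACK-VAD with WT-VAD, blue points TRACK with WT, bars are SE and filled points are called. Most filled points lie left of 0 and Cyp2s1 lies farthest right on both diets.

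Among the fatty acid hydroxylases, Cyp4b1 and Cyp4a12b were lower in transgenic cortex on both diets, and the other Cyp4a genes gave smaller or less even differences. Cyp4b1, which in mouse also activates lung toxins, had 784, 483, 989 and 1334 in TRACK-VAD, 736, 684, 673 and 793 in TRACK, 2633, 2404 and 1876 in WT-VAD and 2081, 2064 and 2505 in WT (scaled FPKM). No transgenic library reached the lowest wild-type library. Its log2 difference was -1.62 ± 0.25 (SE, adjusted p = 0.000897, limma) for TRACK against WT and -1.44 ± 0.25 (adjusted p = 0.00248) for TRACK-VAD against WT-VAD. A lane term, resting on TRACK-VAD 4 alone, changed the second to -0.77.

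Cyp4a12a and Cyp4a12b, near-identical neighbours on chromosome 4, are androgen-driven in mouse kidney, where Cyp4a12a is known as a main source of hydroxylated arachidonic acid. Cyp4a12a had 5.83, 2.46, 39.6 and 39.6 in TRACK-VAD, 26.9, 35.4, 16.9 and 27.9 in TRACK, 148, 125 and 90.1 in WT-VAD and 85.1, 118 and 135 in WT. TRACK-VAD 1 and 2 were the lowest of all, and transgenic and wild-type libraries did not overlap on either diet. The log2 difference was -3.09 ± 0.69 (SE, adjusted p = 0.00872) for TRACK-VAD against WT-VAD, or -2.42 (adjusted p = 0.0105) without TRACK-VAD 2. A lane term, resting on TRACK-VAD 4 alone, gave -1.56. For TRACK against WT the log2 difference was -2.06 ± 0.69, which did not pass (adjusted p = 0.0568). Fitted with only TRACK and WT, it passed (limma, adjusted p = 0.000501). Fitted with only TRACK-VAD and WT-VAD, the deficient-diet difference did not pass (adjusted p = 0.0722). Cyp4a12b had 6.33, 4.57, 7.31 and 4.72 in TRACK-VAD, 10.1, 6.71, 5.47 and 6.57 in TRACK, 17.8, 20.2 and 13.8 in WT-VAD and 22.8, 17.8 and 25.2 in WT. All transgenic libraries lay below all wild-type libraries here too. It fell by 1.44 ± 0.20 (log2, SE, adjusted p = 0.000533) in TRACK-VAD against WT-VAD and by 1.50 ± 0.20 (adjusted p = 0.000248) in TRACK against WT.

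The levels of these neighbours depend on how reads were divided between them. Their coding sequences are 98.5% identical, and of the 51-base words of the transcripts, the length of the reads, 48.4% in Cyp4a12a and 48.9% in Cyp4a12b occur in another gene. The sum of both genes was 27.6 ± 20.9 in TRACK-VAD, 34.0 ± 8.36 in TRACK, 138 ± 31.5 in WT-VAD and 135 ± 26.3 in WT, with no overlap between transgenic and wild-type libraries. A stretch of the coding sequence where the genes can be told apart, from coding base 633 (GENCODE transcripts), is given here with the differing bases in capitals.
Cyp4a12a: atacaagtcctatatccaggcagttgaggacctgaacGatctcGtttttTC
Cyp4a12b: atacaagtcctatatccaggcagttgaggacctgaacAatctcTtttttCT
In 54.2% of all such 51-base stretches of the coding alignment no base differs.

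Cyp4a14 and Cyp4a10 are fatty acid hydroxylases that PPARA agonists induce. Cyp4a14 had 1181, 1101, 776 and 556 in TRACK-VAD, 1577, 628, 721 and 649 in TRACK, 1414, 1993 and 1796 in WT-VAD and 1965, 1543 and 1274 in WT. TRACK 1 was high and overlapped WT, while the other TRACK libraries lay below all of WT. Cyp4a14 fell by 0.99 ± 0.32 (log2, SE, adjusted p = 0.0416) in TRACK-VAD against WT-VAD, a call lost without TRACK-VAD 3, TRACK-VAD 4 or any 1 WT-VAD library (adjusted p = 0.0614 to 0.125). The difference of TRACK from WT was -0.93 ± 0.32 (adjusted p = 0.0623), and -1.24 (adjusted p = 0.00702) without TRACK 1. Cyp4a10 had 662, 633, 872 and 702 in TRACK-VAD, 926, 717, 697 and 736 in TRACK, 815, 1186 and 824 in WT-VAD and 1245, 1011 and 1046 in WT. TRACK lay below WT in every library, while TRACK-VAD 3 overlapped WT-VAD. It fell by 0.52 ± 0.16 (adjusted p = 0.0358) in TRACK against WT. That call was lost without any 1 of WT 1 to 3 and TRACK 2 to 4 (adjusted p = 0.0515 to 0.150), without scaling (0.0878) and with a replicate block (0.0748).

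Cyp4a31 had 484, 354, 737 and 653 in TRACK-VAD, 617, 591, 623 and 688 in TRACK, 845, 836 and 913 in WT-VAD and 875, 725 and 885 in WT. Transgenic and wild-type libraries did not overlap within either diet. It fell by 0.69 ± 0.19 (log2, SE, adjusted p = 0.0228) in TRACK-VAD against WT-VAD, a call lost without TRACK-VAD 1 or any 1 WT-VAD library (adjusted p = 0.0555 to 0.0736), and the difference of TRACK from WT was -0.39 ± 0.19 (adjusted p = 0.174). Cyp4a32, with 0.717 to 2.10 in all libraries, was called in no comparison. Of its 51-base words 45.8% occur in another gene, as do 29.9% of those of Cyp4a10 and 21.4% of those of Cyp4a31.

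Cyp4f and Cyp4v members were expressed at low levels and 2 of them rose on the deficient diet. Cyp4f18, known in mouse myeloid cells for hydroxylating the leukotriene B group, had 1.49, 2.22, 2.16 and 1.29 in TRACK-VAD, 1.12, 0.836, 1.33 and 0.892 in TRACK, 0.997, 0.438 and 0.320 in WT-VAD and 0.416, 0.361 and 0.556 in WT. Every transgenic library lay above the wild-type libraries of its diet. The 6 libraries in which Cyp4f18 reached 1 FPKM as deposited were all transgenic. It thus met the rule only through the groups where it is high, and its rise is given as a description. It rose by 0.82 ± 0.16 (log2, SE, adjusted p = 0.00470) in TRACK-VAD against WT-VAD, and the difference of TRACK from WT was 0.50 ± 0.16 (adjusted p = 0.0502). Macrophage and myeloid markers moved the same way: 7 of 10 rose in each genotype comparison, and their summed level ranged over 117 to 267 in TRACK-VAD, 91.5 to 109 in TRACK, 45.3 to 67.2 in WT-VAD libraries and 43.7 to 52.3 in WT. Their part in the Cyp4f18 difference was not tested. Fitted with only TRACK-VAD and WT-VAD, Cyp4f18 had an adjusted p of 0.0511 (limma). A lane term, resting on TRACK-VAD 4 alone, gave a difference of 0.55. Cyp4v3, a fatty acid hydroxylase gene, averaged 4.01 ± 0.642 in TRACK-VAD and 2.50 ± 0.369 in WT-VAD and rose by 0.52 ± 0.11 (adjusted p = 0.00640). Fitted with only these groups, Cyp4v3 had an adjusted p of 0.0670 (limma), and a lane term gave a difference of 0.34. On chow its difference was 0.14 (adjusted p = 0.377). Cyp4f13, Cyp4f16 and Cyp4f17 were called in no comparison.

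Among the genes of arachidonic acid epoxides, 3 of 5 Cyp2j members fell on both diets and Cyp2c44 fell on chow. Cyp2j5, the most abundant of them in mouse kidney cortex here, had 438, 406, 696 and 669 in TRACK-VAD, 521, 538, 473 and 519 in TRACK, 825, 869 and 739 in WT-VAD and 810.1, 770.4 and 791 in WT. TRACK-VAD 1 and 2 were low within their group, and transgenic and wild-type libraries did not overlap. It fell by 0.59 ± 0.16 (log2, SE, adjusted p = 0.0226) in TRACK-VAD against WT-VAD and by 0.63 ± 0.16 (adjusted p = 0.0200) in TRACK against WT.

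Cyp2j11 had 55.4, 47.9, 98.6 and 93.6 in TRACK-VAD, 65.6, 74.5, 71.9 and 70.7 in TRACK, 117, 125 and 103 in WT-VAD and 129, 114 and 116 in WT. Cyp2j13 had 58.1, 33.4, 100.3 and 125 in TRACK-VAD, 56.9, 76.2, 70.9 and 80.0 in TRACK, 174, 169.6 and 132 in WT-VAD and 157, 130.2 and 156 in WT. For both genes TRACK-VAD 3 and 4 came closest to the wild-type libraries without reaching them. Cyp2j11 fell by 0.69 ± 0.20 (log2, SE, adjusted p = 0.0287) in TRACK-VAD against WT-VAD and by 0.75 ± 0.20 (adjusted p = 0.0237) in TRACK against WT. For Cyp2j13 the differences were -1.15 ± 0.33 (adjusted p = 0.0249) and -1.05 ± 0.33 (adjusted p = 0.0416).

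These Cyp2j calls were not firm. On chow those of Cyp2j5 and Cyp2j11 were lost without WT 1, WT 3 or TRACK 3 (adjusted p = 0.0524 to 0.0928), and that of Cyp2j13 was lost without any 1 of the 7 libraries (0.0603 to 0.127). On the deficient diet all 3 were lost without TRACK-VAD 1, WT-VAD 1 or WT-VAD 2, and Cyp2j11 also without TRACK-VAD 2 (adjusted p = 0.0598 to 0.0936). Their differences with a lane term were -0.27, -0.29 and -0.33 on that diet, with no call. Cyp2j6 (12.1 to 17.4 in all libraries) and Cyp2j9 (2.56 to 6.39) were called in no comparison.

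Cyp2c44, an epoxide-forming gene of mouse kidney, had 8.08, 7.59, 8.89 and 7.33 in TRACK-VAD, 8.44, 6.68, 6.31 and 9.13 in TRACK, 9.43, 12.1 and 7.72 in WT-VAD and 14.9, 13.6 and 18.3 in WT. WT libraries were the highest of all, and WT-VAD overlapped TRACK-VAD. It fell by 0.94 ± 0.15 (log2, SE, adjusted p = 0.00114) in TRACK against WT, while the difference of TRACK-VAD from WT-VAD was -0.24 ± 0.15 (adjusted p = 0.260). The difference between these differences was 0.70 ± 0.21 (limma, unadjusted p = 0.00599), which did not pass over all genes (adjusted p = 0.436).

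Cyp2e1, Cyp2a5 and Cyp2d9 gave the largest decreases among the enzymes of foreign chemicals and steroids that were called on both diets. Cyp2e1, which oxidizes ethanol, acetaminophen and ketone bodies, had 326, 344, 889 and 633 in TRACK-VAD, 394, 405, 427 and 665 in TRACK, 1683, 2046 and 1578 in WT-VAD and 2256, 1489 and 1996 in WT. The highest transgenic library was below the lowest wild-type library. It fell by 1.81 ± 0.31 (log2, SE, adjusted p = 0.00222) in TRACK-VAD against WT-VAD and its log2 difference was -2.03 ± 0.31 (adjusted p = 0.000788) in TRACK against WT. Its gene lies on chromosome 7, 140763739 to 140774987, plus strand. With lane as a term the deficient-diet difference was -1.47 and lost its call (adjusted p = 0.172), and with lane 6 libraries alone it was called (adjusted p = 0.0148).

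**Figure D3:**
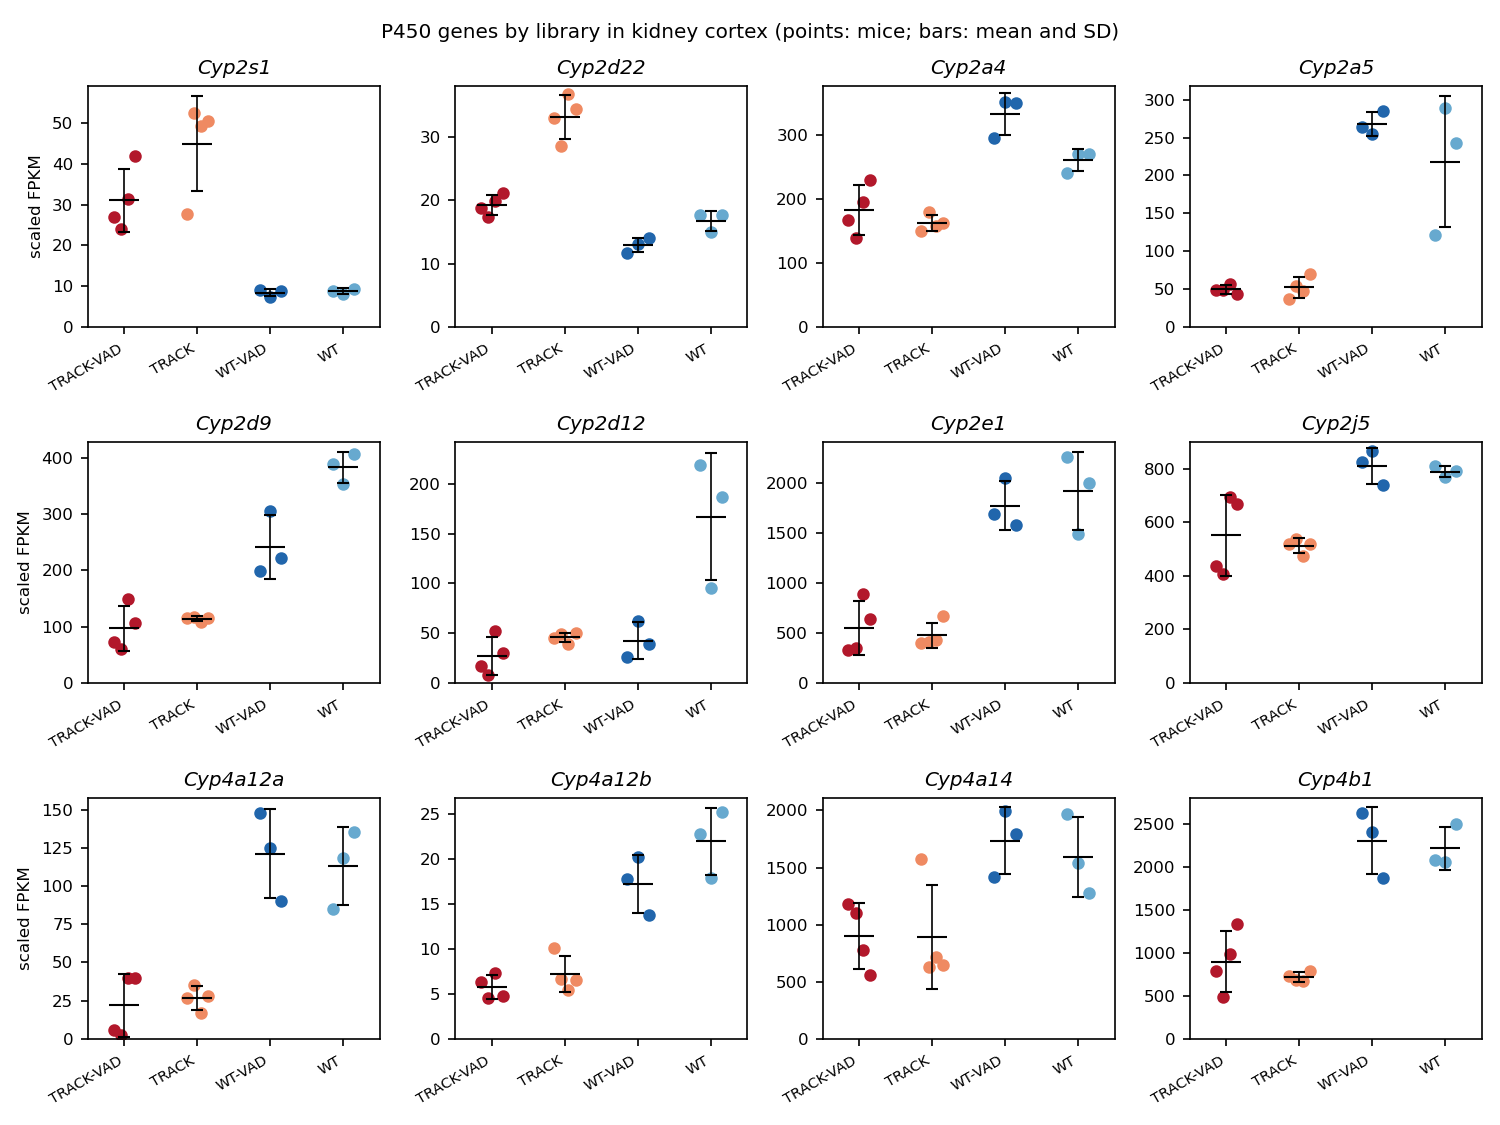
Scaled FPKM of 12 members in each library, 1 panel per gene with its own axis starting at 0; points are mice and bars are mean and SD in TRACK-VAD, TRACK, WT-VAD and WT. Cyp2e1, Cyp2a5 and Cyp4b1 separate the genotypes on both diets, Cyp2d12 is high in WT alone, and Cyp2s1 has its highest values in TRACK.

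Cyp2a4 and Cyp2a5 lie on chromosome 7 and encode a steroid hydroxylase and the mouse coumarin hydroxylase. Cyp2a4 had 166, 138, 194 and 229 in TRACK-VAD, 149, 179, 157 and 162 in TRACK, 294, 351 and 350.1 in WT-VAD and 239.9, 269.8 and 270.2 in WT. Cyp2a5 had 48.6, 48.9, 57.1 and 43.4 in TRACK-VAD, 37.4, 53.7, 47.3 and 69.5 in TRACK, 264, 254 and 285 in WT-VAD and 121, 289 and 244 in WT. All transgenic libraries lay below all wild-type libraries for both genes, and WT 1 was low for Cyp2a5 within its group. Cyp2a4 fell by 0.88 ± 0.14 (log2, SE, adjusted p = 0.00145) in TRACK-VAD against WT-VAD and by 0.68 ± 0.14 (adjusted p = 0.00578) in TRACK against WT. Cyp2a5 fell by 2.42 ± 0.25 (adjusted p = 6.07e-05) and 1.99 ± 0.25 (adjusted p = 0.000169). With a lane term, resting on TRACK-VAD 4 alone, the deficient-diet difference of Cyp2a4 was -0.53.

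The Cyp2a5 level relative to Cyp2a4 was lower in transgenic cortex. The ratio was 0.189 to 0.354 in TRACK-VAD, 0.251 to 0.428 in TRACK, 0.723 to 0.898 in WT-VAD mice and 0.506 to 1.07 in WT. Averaged over diets, the log2 ratio differed by -1.44 between transgenic and wild-type mice, a description chosen after the values were seen and given with no test. The coding sequences of the pair are 98.4% identical with 23 differing bases, and 37.9% of the 51-base words of Cyp2a4 and 40.0% of those of Cyp2a5 occur in another gene. Reads in such words may have been divided between the genes, so the separate levels are uncertain. The summed level of the pair depends on the division between them through the transcript lengths (1738 bases for Cyp2a4 and 2013 for Cyp2a5). It also depends on words shared with further genes, since 30.3% of the Cyp2a5 words occur in Cyp2a4 itself. How reads in shared words were placed or left out is not known. The sum was 231 ± 38.1 in TRACK-VAD, 214 ± 22.6 in TRACK, 599.8 ± 38.3 in WT-VAD and 478 ± 104 in WT. The stretch from coding base 206 shows with capitals the bases by which a read can be assigned.
Cyp2a4: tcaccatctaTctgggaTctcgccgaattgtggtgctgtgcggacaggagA
Cyp2a5: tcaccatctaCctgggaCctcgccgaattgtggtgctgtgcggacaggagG
No base differs in 37.3% of the 51-base stretches of their coding alignment.

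**Figure D4:**
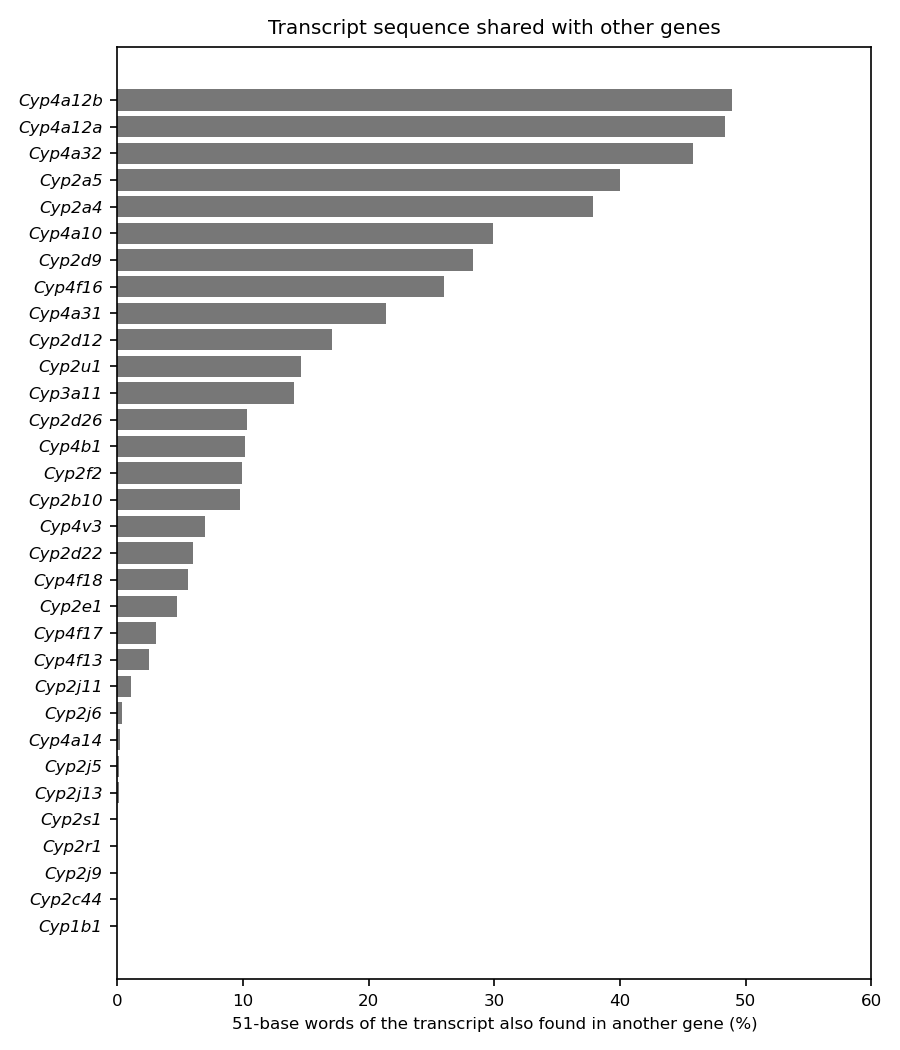
Share of the 51-base words of each member's transcript (GENCODE vM21) that also occur in another gene, in percent. It reaches 48.9% in Cyp4a12b, is at or over 20% in 9 members, under 5% in 13 and 0 in 5 of those.

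The sequence before the start of both genes is also close to identical. The 250 bases before each start (RefSeq, GRCm38.p6, plus strand) align with 97.6% identity, 245 of 251 columns, and both hold GTTAAT, a core of HNF1 sites, which is in 6.43% of 32851 mouse windows of that length and in 4 of the 22 member windows that could be matched. These windows are shown because the pair fell by different amounts, with the differing bases in capitals. The first capital of Cyp2a4 and the last of Cyp2a5 are unpaired ends, since the windows are slightly offset. These ends count among the 251 columns and are no base differences. The Cyp2a4 window is chr7:26306942-26307191 and that of Cyp2a5 is chr7:26835089-26835338. Both end at the RefSeq start, which lies past the gene start in the deposited loci (26307169 and 26835305).
Cyp2a4: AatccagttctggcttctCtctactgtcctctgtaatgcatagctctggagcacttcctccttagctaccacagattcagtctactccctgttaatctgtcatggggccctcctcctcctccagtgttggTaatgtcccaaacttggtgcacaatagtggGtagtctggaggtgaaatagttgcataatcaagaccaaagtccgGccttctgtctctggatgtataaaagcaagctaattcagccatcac
Cyp2a5: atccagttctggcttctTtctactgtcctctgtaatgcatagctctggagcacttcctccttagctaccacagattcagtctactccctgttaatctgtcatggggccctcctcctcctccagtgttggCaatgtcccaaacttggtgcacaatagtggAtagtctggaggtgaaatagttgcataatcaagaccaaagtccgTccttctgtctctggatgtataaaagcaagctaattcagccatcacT

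Short matches to the HIF core were looked for in the same windows, on both strands. ACGTG was found in 3 of 22 member windows and in 16.6% of all mouse windows, GCGTG in 6 and 28.2%, and either in 8 and 38.6%. The Cyp2s1 window held neither, and that of Cyp2e1 held ACGTG on the other strand with its first base 36 before the RefSeq start. That start lies past the gene start in the deposited loci (140763739), so the match falls inside the Cyp2e1 locus given above. A match is a description of the letters and not a binding site. The Cyp2e1 window, chr7:140763569-140763818 on the plus strand (RefSeq, GRCm38.p6), is printed with this match and the adjacent TATAAA in capitals. TATAAA was found in 8 of the 22 member windows and in 12.4% of all windows.
Cyp2e1: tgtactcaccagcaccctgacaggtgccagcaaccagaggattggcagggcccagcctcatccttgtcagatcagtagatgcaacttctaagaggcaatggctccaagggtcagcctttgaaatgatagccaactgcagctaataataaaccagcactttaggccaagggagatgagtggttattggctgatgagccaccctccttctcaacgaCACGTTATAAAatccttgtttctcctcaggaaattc

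The Cyp2d subfamily went both ways. Cyp2d9, a steroid hydroxylase gene that is male-biased in mouse liver, had 72.0, 60.9, 149.8 and 107 in TRACK-VAD, 116, 117, 107 and 115 in TRACK, 198, 306 and 221 in WT-VAD and 389, 353 and 407 in WT. No transgenic library reached a wild-type library. It fell by 1.37 ± 0.24 (log2, SE, adjusted p = 0.00249) in TRACK-VAD against WT-VAD and its log2 difference was -1.74 ± 0.24 (adjusted p = 0.000342) in TRACK against WT. With lane as a term the deficient-diet difference was -1.15 (adjusted p = 0.173).

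Cyp2d12 had 16.9, 7.80, 52.1 and 29.6 in TRACK-VAD, 45.5, 48.8, 39.5 and 49.9 in TRACK, 25.8, 62.5 and 39.3 in WT-VAD and 219, 95.7 and 187 in WT. WT stood above the 3 other groups, which overlapped in part. It fell by 1.76 ± 0.48 (log2, SE, adjusted p = 0.0248) in TRACK against WT, a call lost without WT 1, WT 3, TRACK 2 or TRACK 3 (adjusted p = 0.05002 to 0.108). The difference of TRACK-VAD from WT-VAD was -0.86 ± 0.48 (adjusted p = 0.213), and -1.28 (adjusted p = 0.0387) without TRACK-VAD 3. Cyp2d12 and Cyp2d9 have coding sequences 92.1% identical, and 17.1% of the words of Cyp2d12 and 28.3% of those of Cyp2d9 occur in another gene.

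Cyp2d22, held to be the mouse gene nearest to the human debrisoquine hydroxylase, rose. It had 18.8, 17.3, 19.8 and 21.2 in TRACK-VAD, 32.9, 28.6, 36.8 and 34.4 in TRACK, 11.7, 13.1 and 13.997 in WT-VAD and 17.7, 14.9 and 17.6 in WT. TRACK was highest in every library, and TRACK-VAD lay above WT-VAD without overlap. It rose by 0.54 ± 0.10 (log2, SE, adjusted p = 0.00371) in TRACK-VAD against WT-VAD and by 0.94 ± 0.10 (adjusted p = 5.35e-05) in TRACK against WT. Cyp2d26 had 90.4, 63.1, 121 and 105 in TRACK-VAD, 124, 83.8, 92.5 and 115 in TRACK, 86.8, 98.1 and 71.0 in WT-VAD and 134, 97.5 and 130.3 in WT. Its groups overlapped and it was called in no comparison.

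Cyp2s1 showed the largest increase of all members. This gene is expressed mainly outside the liver and is induced by dioxin through AHR in mouse. It had 27.1, 24.1, 31.3 and 41.9 in TRACK-VAD, 27.6, 52.5, 49.4 and 50.5 in TRACK, 8.98, 7.32 and 8.92 in WT-VAD and 8.78, 7.98 and 9.41 in WT. Every transgenic library was above every wild-type library, and TRACK 1 was low within its group. The rise was 1.75 ± 0.21 (log2, SE, adjusted p = 0.000213) in TRACK-VAD against WT-VAD and 2.20 ± 0.21 (adjusted p = 1.62e-05) in TRACK against WT. None of its 51-base words occurs in another gene. The gene lies on chromosome 7, 25802475 to 25816913, minus strand, in the table's loci.

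Of the other members at low levels, Cyp3a11 and Cyp2f2 fell on the deficient diet. Cyp3a11, in mouse liver a main drug-metabolizing gene, had 0.104, 0.201, 0.451 and 0.931 in TRACK-VAD, 0.315, 0.882, 1.10 and 0.292 in TRACK, 1.24, 2.45 and 2.10 in WT-VAD and 1.75, 1.02 and 0.780 in WT. TRACK-VAD lay below WT-VAD, and TRACK overlapped WT. It fell by 1.06 ± 0.24 (log2, SE, adjusted p = 0.00918) in TRACK-VAD against WT-VAD. By construction of log2(value + 1) this understates the ratio of such low values. Cyp3a11 reached 1 FPKM as deposited in WT-VAD 1 to 3, WT 1 and TRACK 3. Without WT-VAD, where it is high, it would not have met the rule, so this fall is given as a description. A lane term, resting on TRACK-VAD 4 alone, gave -0.58. Cyp2f2, known for naphthalene in mouse airways, averaged 1.77 ± 0.718 in TRACK-VAD and 3.62 ± 0.451 in WT-VAD and fell by 0.78 ± 0.26 (adjusted p = 0.0443). That call was lost without any 1 library except TRACK-VAD 3 or 4 (adjusted p = 0.0777 to 0.128). Cyp1b1, Cyp2b10, Cyp2r1 (a vitamin D hydroxylase gene) and Cyp2u1 were called by limma in no comparison, with log2 differences between genotypes of -0.40 to 0.49.

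Diet alone moved 1 member past the threshold. In TRACK-VAD against TRACK, Cyp2d22 fell by 0.75 ± 0.09 (log2, SE, adjusted p = 0.00437), with no overlap of the values given above, while 0.155% of all genes were called. Fitted with only these 2 groups, its adjusted p was 0.0946. At an unadjusted p of 0.05, 2 members were higher and 4, Cyp2d22 included, lower, and so were 5.13% and 5.33% of all genes. In WT-VAD against WT, limma called 0 of 32 members and 0.514% of all genes (0.294% lower), with 1 member higher and 5 lower at an unadjusted p at or under 0.05, against 4.86% of all genes higher and 5.29% lower at that level. These were Cyp2a4 higher (0.35 ± 0.15) and Cyp2c44 (-0.63 ± 0.16), Cyp2d9 (-0.68 ± 0.26), Cyp2d12 (-1.96 ± 0.52), Cyp2d22 (-0.35 ± 0.11) and Cyp2d26 (-0.49 ± 0.22) lower.

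All 4 Cyp2d members thus had negative values on the deficient diet in both genotypes, with medians of -0.53 in TRACK-VAD against TRACK and -0.59 in WT-VAD against WT, and 1 call among the 8 tests. In the authors' deposited table Cyp2c44 (log2 fold change -0.60, adjusted p = 0.0305), Cyp2d12 (-1.25, adjusted p = 0.0102) and Cyp2d22 (-0.40, adjusted p = 0.0352) were lower in WT-VAD than in WT, and Cyp2d22 (-0.76, adjusted p = 3.03e-10) was lower in TRACK-VAD than in TRACK. All WT-VAD libraries ran in lane 6 and all WT libraries in lane 5, so lane and diet cannot be told apart there. The difference of the genotype effects between the diets was called in 0 of 32 members and in 0.00816% of all genes (2 members higher and 1 lower at an unadjusted p of 0.05, against 3.71% and 4.38% of all genes).

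**Figure D5:**
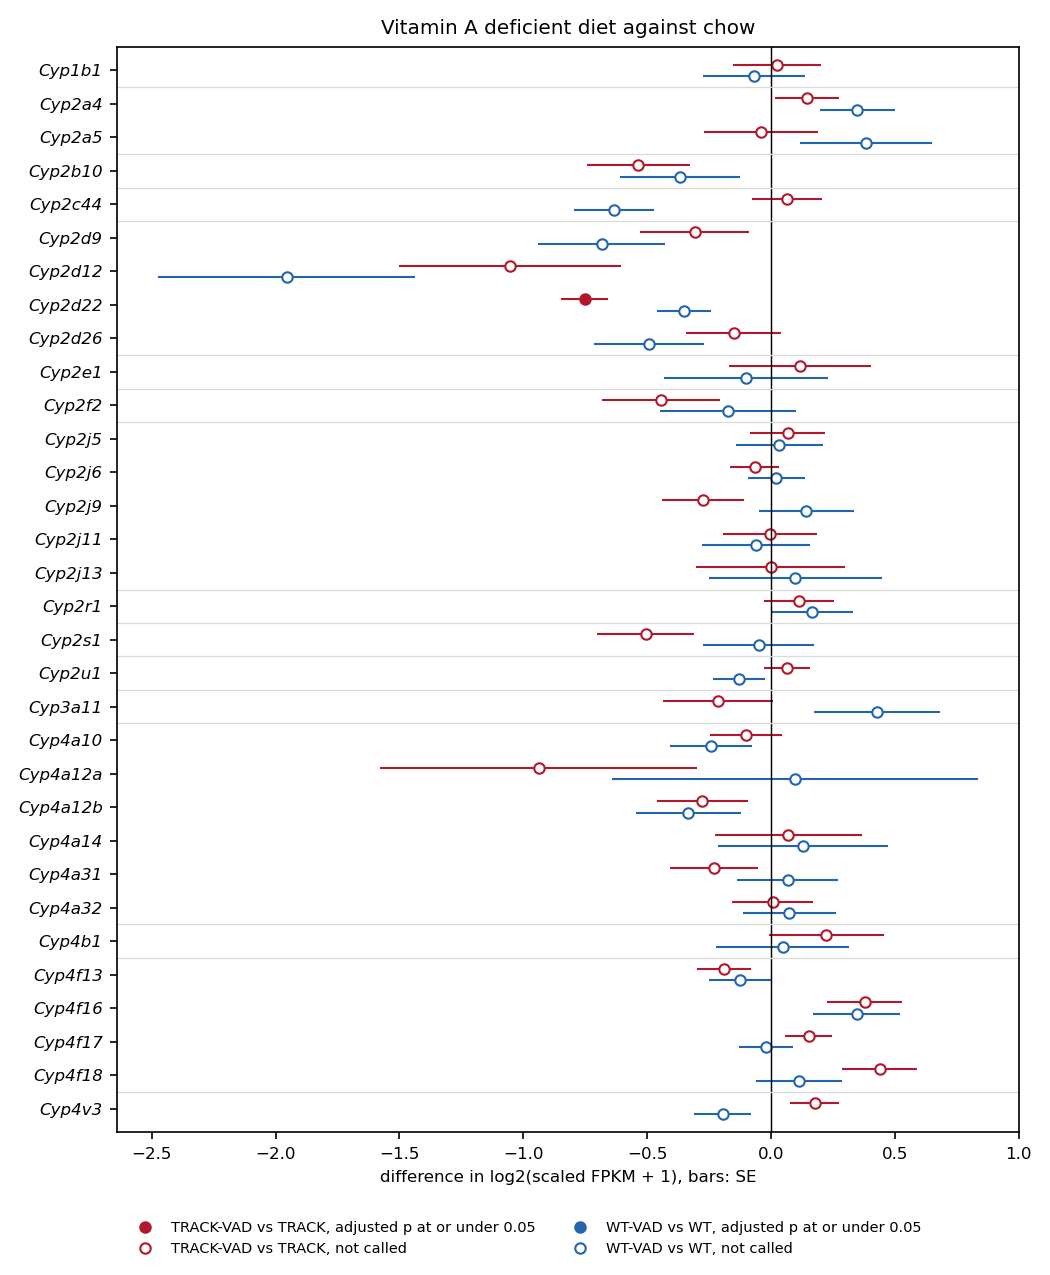
Difference in log2(scaled FPKM + 1) between the vitamin A deficient diet and chow for all 32 members; red points compare TRACK-VAD with TRACK, blue points WT-VAD with WT, bars are SE and filled points are called. The 1 filled point is Cyp2d22 at -0.75, and the Cyp2d genes all lie left of 0.

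The genes that supply electrons and haem to P450 enzymes were partly lower in transgenic cortex. Of 18 such genes, 11 fell in TRACK-VAD against WT-VAD and 6 fell in TRACK against WT, with list medians of -0.38 and -0.26. For this list and those below, the shares over all genes were 11.1% higher and 11.2% lower on the deficient diet. On chow they were 8.55% higher and 8.82% lower. Cyb5a, the gene of microsomal cytochrome b5, fell by 0.81 ± 0.11 (log2, SE, adjusted p = 0.000563) on the deficient diet and by 0.85 ± 0.11 (adjusted p = 0.000256) on chow. Por, the P450 reductase, had 81.6, 63.5, 154 and 168 in TRACK-VAD and 211, 199 and 179 in WT-VAD and fell by 0.86 ± 0.26 (adjusted p = 0.0350). On chow Por averaged 129 in TRACK and 184 in WT, a difference of -0.51 ± 0.26 that did not pass (adjusted p = 0.201). Cpox and Fech, enzymes of haem synthesis, fell on both diets, and Alas1, its first enzyme, fell on the deficient diet (-0.78 ± 0.24, adjusted p = 0.0332). Alas1 averaged 106 in TRACK-VAD and 176 in WT-VAD, and 102 in TRACK and 101 in WT, a difference of 0.02 ± 0.24 on chow (adjusted p = 0.960).

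Partners of epoxide and eicosanoid metabolism changed in a few genes. Of 9 tested, 2 rose and 1 fell on the deficient diet, and 1 rose and 2 fell on chow. Ephx2, the soluble epoxide hydrolase that breaks down epoxides of arachidonic acid, averaged 188 in TRACK-VAD and 484 in WT-VAD (log2 difference -1.38 ± 0.13 (SE), adjusted p = 2.12e-05) and 199 in TRACK and 429 in WT (-1.10 ± 0.13, adjusted p = 8.50e-05). Ephx1, the microsomal epoxide hydrolase, averaged 61.5 in TRACK-VAD and 30.5 in WT-VAD (0.97 ± 0.13, adjusted p = 0.000452) and 66.1 in TRACK and 29.4 in WT (1.15 ± 0.13, adjusted p = 7.24e-05). The hydrolases thus differed in opposite directions between the genotypes on both diets.

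Of 18 genes tested in a list of nuclear receptors and factors of P450 regulation, 4 fell on the deficient diet, and 2 rose and 5 fell on chow. Over all genes 22.3% were called in either direction on the deficient diet, a share near this count, and 17.4% on chow. Those that fell on each diet include Nqo1, a quinone reductase gene that AHR induces and no regulator itself. Ppara fell by 0.53 ± 0.15 (log2, SE, adjusted p = 0.0286) and by 0.70 ± 0.15 (adjusted p = 0.00861), and its partner Rxra and the bile acid receptor Nr1h4 fell on both diets. Ahr, the dioxin receptor, rose by 0.41 ± 0.11 (adjusted p = 0.0237) on chow, and its difference on the deficient diet was 0.24 ± 0.11 (adjusted p = 0.133). Bcl6, a transcriptional repressor gene, averaged 14.3 in TRACK and 3.43 in WT and rose by 1.86 ± 0.26 (adjusted p = 0.000368) on chow. Its difference of TRACK-VAD from WT-VAD was 0.34 ± 0.26 (adjusted p = 0.354), and it fell by 1.95 ± 0.24 (adjusted p = 0.00437) in TRACK-VAD against TRACK. Hnf4a was listed at 0 in some libraries and was not tested. Of 20 other PPARA targets, 2 rose and 10 fell on the deficient diet, and 1 rose and 10 fell on chow.

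Some proximal tubule markers were lower in transgenic cortex as well. Of 16, 1 rose and 7 fell in TRACK-VAD against WT-VAD and 6 fell in TRACK against WT, with list medians of -0.65 and -0.45. Their summed level, mostly Kap, was 27380 to 64953 in TRACK-VAD, 52141 to 59060 in TRACK, 55434 to 67385 in WT-VAD mice and 59097 to 64914 in WT. These sums overlapped between the genotypes on the deficient diet, and no marker was at 0 in all libraries. The part of tubule cell number or tubule state in the P450 differences was not tested. Of 7 tubular injury genes tested, 6 rose on the deficient diet and 3 on chow, with summed levels of 651 to 8574 in TRACK-VAD, 743 to 1059 in TRACK, 414 to 470.0 in WT-VAD mice and 594 to 794 in WT. Of 6 endothelial genes, 5 rose on each diet, with sums of 217 to 309 in TRACK-VAD, 236 to 256 in TRACK, 153 to 162 in WT-VAD mice and 153 to 174 in WT. Lymphocyte genes rose in 4 of 5 on the deficient diet and 2 of 5 on chow, and summed to 49.9 to 253 in TRACK-VAD, 163 to 378 in TRACK, 22.5 to 44.8 in WT-VAD mice and 13.7 to 21.2 in WT. The part of these cells and genes was not tested either. Of 10 hepatocyte genes, 2 fell on the deficient diet and 1 rose on chow, counts near the shares over all genes. Their summed levels were 277 to 499 in TRACK-VAD, 237 to 355 in TRACK, 316 to 348 in WT-VAD mice and 207 to 262 in WT. In the lists of loop and distal tubule, collecting duct, podocyte, fibroblast, fat and male-biased kidney genes, 0 to 2 genes were called in either direction in each genotype comparison. Both female-biased kidney genes were called on chow: Slc7a12 rose by 2.01 ± 0.29 (log2, SE, adjusted p = 0.000463) and Prlr fell by 0.71 ± 0.20 (adjusted p = 0.0281). On the deficient diet Slc7a12 rose by 2.57 ± 0.29 (adjusted p = 0.000115) and Prlr had a difference of -0.21 ± 0.20 (adjusted p = 0.478). Their part in the P450 differences was not tested. Adrenal cortex genes had at most 0.944 FPKM and were not tested. Of 7 genes tested in other P450 families, 1 rose and 1 fell on each diet, and Cyp27a1, which hydroxylates sterols and vitamin D, was the one that fell on both.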

How the data were processed

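Kidney cortex RNA of 14 mice was read as 51-base single reads. The authors deposited FPKM per protein-coding gene, with no pooling. No source used here names the aligner or the counter. The submitters' processing notes name DESeq 1.32 and mm9, but loci in the table match GRCm38 (26 of 32 members have GENCODE vM21 positions exactly), so GRCm38 is used. The authors also deposited, per the file headers, mean normalized counts (a signal over libraries), log2 fold changes and adjusted p-values.

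FPKM were scaled by a trimmed mean of log ratios, leaving out the outer 30% by ratio and 5% by level. Genes with 1 FPKM in at least 3 libraries were kept, less 17 listed at 0 in a library but well expressed elsewhere (0 of them members), leaving 12251. limma 3.58.1 (R 4.3.3) tested log2(scaled FPKM + 1) with 4 group means over 14 libraries, a variance trend and Benjamini-Hochberg adjustment, called at 0.05. The pseudocount of 1 understates changes of low genes.

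Members with a log2 difference of at least 1 that were called, or with a mean of at least 50 scaled FPKM in a group, were described by library, and so were Cyp2c44, Cyp2d22 and Cyp4f18, chosen after their values were seen. Members and lists were chosen with earlier results of these data known. Libraries are labelled as biological replicates, 3 or 4 per group. Depth is unknown, since FPKM hold no counts. Another 6 columns, matching no library, were not used. Same-numbered libraries were not treated as pairs in the main fit. Shared 51-base words and coding identities used GENCODE vM21 transcripts, and promoter windows came from RefSeq (GRCm38.p6), matched for 22 of 32 members. Alternatives were other scalings, pseudocounts, filters, group subsets, a replicate block, leaving out each library, and lane.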

Additional observations from a re-analysis of the deposited data

Results flagged for a closer look

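In 6 of 64 groups of 4 libraries 1 library lay far from the others, judged by its gap to the nearest library as a share of the group's range against Dixon's limit for 4 values, and chance gives about 1 in 20. All are TRACK libraries, and values are scaled FPKM. Cyp2b10 was 2.31 in TRACK 3, against 0.830 to 1.07 in the other TRACK libraries. Cyp2e1 was 665 in TRACK 4, against 394 to 427. Cyp2j9 was 6.39 in TRACK 3, against 3.83 to 4.10. Cyp2s1 was 27.6 in TRACK 1, against 49.4 to 52.5. Cyp4a14 was 1577 in TRACK 1, against 628 to 721. Cyp4v3 was 3.19 in TRACK 2, against 3.47 to 3.50. Groups of 3 were not examined in this way.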

How the results depend on the processing

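Members called in TRACK-VAD against WT-VAD numbered 18, and 9 with only these groups in the fit. Both lane settings, chosen after seeing the data, rest this comparison on TRACK-VAD 4 alone, so their calls are not counted here. For TRACK-VAD against TRACK the 1 call became 0 with only these groups. Leaving out 1 library gave 9 to 14 calls for TRACK against WT, 12 to 19 for TRACK-VAD against WT-VAD, 1 to 1 for TRACK-VAD against TRACK, and 0 to 0 for WT-VAD against WT and for the interaction. Over all genes the same settings gave 1026 to 1919, 1612 to 3464, 9 to 55, 5 to 48 and 0 to 7 calls, in that order of comparisons. The causes were not tested. Over all genes, calls in TRACK-VAD against WT-VAD numbered 2732, and 584 with only its groups. With a replicate block 15 members were called for TRACK against WT, 19 for TRACK-VAD against WT-VAD, 0 for WT-VAD against WT, 1 for TRACK-VAD against TRACK and 0 for the interaction. Same-numbered libraries had correlated deviations from -0.143 to 0.382, over 0.1 in 6 of 19 pairs. For libraries of other numbers they were -0.307 to 0.281, over 0.1 in 13 of 54 pairs. These values do not settle whether mice were paired. The labels state no pairing, and the main fit did not read the numbers as pairs. Of 924 differences of 22 members with a library left out, 47 lost and 4 gained a call, and of 875 under other settings, 41 and 11 did. Most of these differences were not called in the main fit and so had no call to lose. Of the 14 calls on chow, 9 were kept whichever 1 library was left out, and of the 18 on the deficient diet, 12 were. No called difference changed sign. Groups of 3 and 4 mice, unknown depth and the uneven lanes limit precision.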
